A study of Mus musculus with 6 samples.

Results

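Oligodendrocytes make the myelin of the brain, and a small set of transcription factors and supporting proteins carries them from precursor to myelinating cell. The genes described here are 8 such genes outside the main structural proteins of myelin. The transcription factor genes *Sox10*, *Sox4* and *Myrf* were set against *Tmem144*, *Slc44a1*, *Gsn* and *Gjb1*, which mark mature oligodendrocytes, and *Enpp6*, which marks newly formed ones. All 8 were among the 787 probes measured, and all 8 were among the 601 probes with enough counts to be tested. The genes were chosen by name and known cell type, with the *Fmr1* KO and WT values of these same mice already known. Their differences between genotypes are therefore given as a description, and counts of calls among them carry no weight as evidence.

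Hypothalamic RNA came from 3 *Fmr1* KO mice and 3 WT mice, all of them females in diestrus at 8 weeks of age, and was counted with the nCounter assay, which counts colour-coded probes hybridized to RNA without amplification. The *Fmr1* KO mice were of the FVB.129P2-Fmr1tm1Cgr/J line, whose disrupted allele is in the germline and so in every cell type, and the WT mice were its congenic controls. A lane held 50 ng of RNA from 1 mouse. Normalized counts below are raw probe counts multiplied by the authors' factor for that lane, and log2 fold changes, given with their standard error (SE), are *Fmr1* KO over WT. The targeted gene was not analysed here, and genotype rests on the labels alone. The numbers in the labels' scan file names run from 4 to 6 for *Fmr1* KO and from 1 to 3 for WT mice, so position in the run and genotype cannot be told apart.

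SOX10 is an HMG-box factor that is present through the whole oligodendrocyte lineage and that, in mice, turns on *Myrf*. MYRF is made as a membrane-bound protein that cleaves itself to release a factor required for myelination. SOX4, a SOX protein of a different subgroup, belongs to progenitors and immature neurons. In mice, prolonged SOX4 expression in oligodendrocytes interferes with myelination. GJB1 is connexin 32, a gap junction protein of oligodendrocytes, and GSN is gelsolin, which severs actin filaments. SLC44A1 carries choline into cells and ENPP6 is an enzyme that releases phosphocholine from lipids, so both serve the supply of choline, a building block of membrane lipids. TMEM144 is a membrane protein that is enriched in oligodendrocytes.

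SOX proteins bind DNA at short sites, and the stretches before the start sites of the measured genes are shown where they hold such letters. RefSeq sequences (GRCm38.p6) were found for 6 of the 8 genes, in 15 start-site windows. Those of *Sox10* and *Myrf* were not used here. In the 250 bases before each start, ACAAAG or ACAATG was searched on both strands as SOX letters and CTGGCAC or CTGGTAC as MYRF letters. The SOX letters were in 5 of the 15 windows, against 25.2% of all 32851 windows. These 5 windows belonged to 3 of the 6 genes, for which no share over all genes was taken. A gene with several windows has more chances of a match, and some windows of the same gene overlapped. The MYRF letters were in 1 of the 15 windows, a *Tmem144* start, against 5.93% of all windows. The window with the most SOX matches is printed for each of the 3 genes, 5′ to 3′ on the gene's strand, with matches in capitals. They lie at chrX:101383482-101383731 on the plus strand for *Gjb1*, at chr3:79852769-79853018 on the minus strand for *Tmem144* and at chr8:46986637-46986886 on the plus strand for *Enpp6*. A match is a run of letters and not a measured binding site.
Gjb1: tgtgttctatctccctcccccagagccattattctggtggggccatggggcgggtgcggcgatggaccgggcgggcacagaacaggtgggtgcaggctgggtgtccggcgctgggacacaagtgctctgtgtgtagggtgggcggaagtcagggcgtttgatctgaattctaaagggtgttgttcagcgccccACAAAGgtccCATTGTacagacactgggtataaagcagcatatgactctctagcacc
Tmem144: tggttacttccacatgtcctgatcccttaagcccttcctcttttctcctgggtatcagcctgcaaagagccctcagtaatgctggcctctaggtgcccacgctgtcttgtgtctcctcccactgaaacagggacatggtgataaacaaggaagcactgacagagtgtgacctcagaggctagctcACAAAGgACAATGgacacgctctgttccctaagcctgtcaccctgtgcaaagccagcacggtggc
Enpp6: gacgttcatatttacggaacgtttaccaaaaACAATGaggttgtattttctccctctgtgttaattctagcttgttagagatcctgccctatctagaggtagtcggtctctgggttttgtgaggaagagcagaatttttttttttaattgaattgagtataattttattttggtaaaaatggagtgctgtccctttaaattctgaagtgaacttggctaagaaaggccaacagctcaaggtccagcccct
In *Gjb1* the matches begin 57 and 47 bases before the start and lie on opposite strands. In *Tmem144* they begin 65 and 58 bases before the start on the same strand, separated by a single base. The single match of *Enpp6* begins 219 bases before the start.

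All 8 genes passed the count minimum, and *Sox4*, *Gjb1* and *Enpp6* had the lowest counts. Raw counts ranged from 34 to 908 over the 8 genes and 6 lanes, and total counts per lane ranged from 165514 to 339934 in *Fmr1* KO and from 261019 to 303764 in WT mice. *Fmr1* KO replicate 2 had the lowest total and the highest lane factor, 1.72, against 0.767 to 1.13 in the other lanes. *Slc17a6*, a glutamate transporter abundant in hypothalamic neurons, had 1683 ± 39.8 normalized counts in *Fmr1* KO and 1777 ± 29.1 in WT mice (SD, n = 3 each). *Cnp*, an enzyme of myelin, had 3562 ± 558 in *Fmr1* KO and 2744 ± 555 in WT mice (SD, n = 3 each), so RNA of oligodendrocytes was plentiful in both groups. In tissue RNA, fewer cells of a type and less RNA per cell cannot be told apart.

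None of the 8 genes passed an adjusted p under 0.05 in the edgeR quasi-likelihood fit over all 601 probes, in which 5 probes passed in either direction (0.832%). The adjusted p of the 8 genes ranged from 0.350 to 0.975. At an unadjusted p under 0.05, 1 of the 8, *Gjb1*, was higher in *Fmr1* KO mice in edgeR, against 5.66% of the 601 probes. In DESeq2 the genes under this unadjusted limit were 2, *Gjb1* and *Enpp6*, both higher in *Fmr1* KO mice, against 4.16% of all tested probes, and again none of the 8 passed after adjustment. The log2 fold change was above 0 for 6 of the 8 genes and for 52.7% of all tested probes. Its median was -0.05 for the 3 transcription factor genes and 0.31 for the 5 mature and newly formed oligodendrocyte genes, beside 0.01 over all tested probes.

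**Figure D1:**
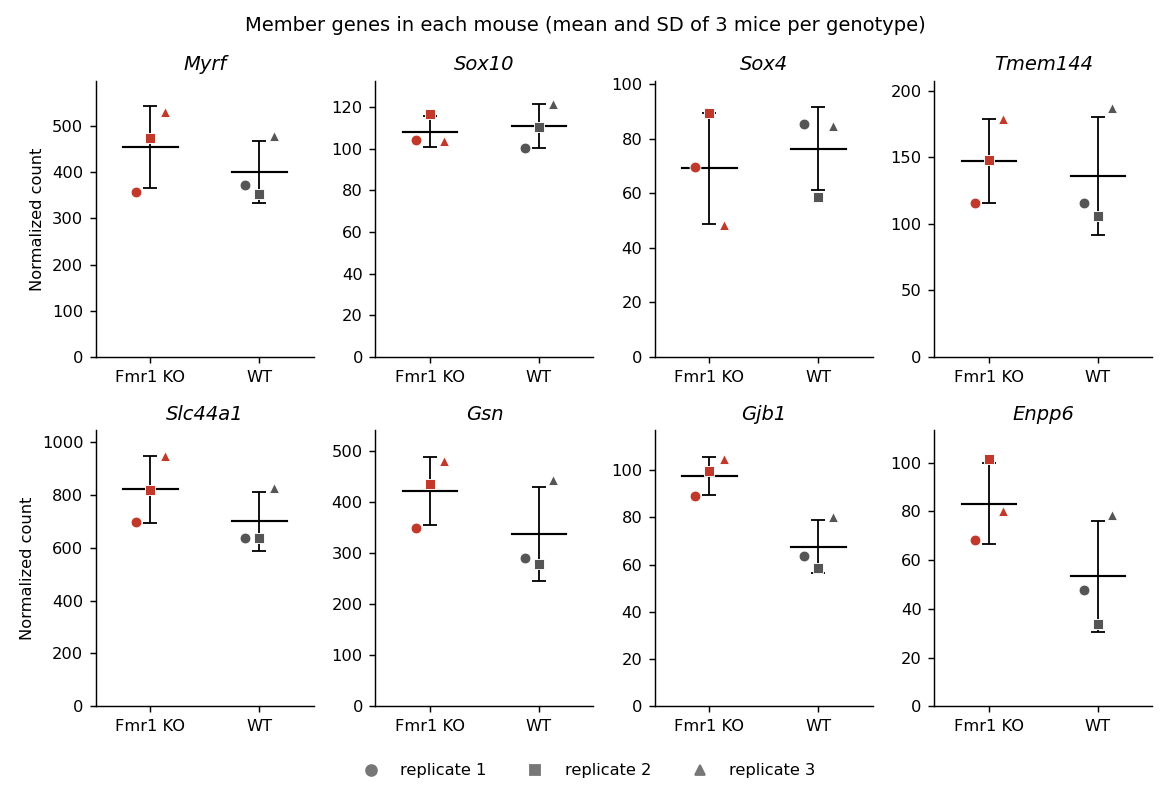
Normalized count (y axis, from 0) of each of the 8 genes in 3 *Fmr1* KO (red) and 3 WT (grey) mice; symbols mark the replicate number, horizontal lines the mean and bars the SD. Only *Gjb1* has all *Fmr1* KO mice above all WT mice, and WT replicate 3 reaches *Fmr1* KO levels in *Myrf*, *Tmem144*, *Slc44a1*, *Gsn* and *Enpp6*.

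Among the regulators, *Sox10* was the steadiest gene. It had 104, 117 and 104 normalized counts in *Fmr1* KO replicates 1, 2 and 3, and 100.4, 111 and 122 in WT replicates 1, 2 and 3. The *Fmr1* KO values lay inside the range of the WT values. The means were 108 ± 7.40 in *Fmr1* KO and 111 ± 10.7 in WT mice (SD, n = 3 each), and the log2 fold change was -0.05 (SE 0.14). Within the genotypes its SD was 0.12 on the log2 scale, 0.83 times the SD that counting alone would give at these counts. The spread of *Sox10* between mice was thus no larger than its counting error.

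*Myrf* had 357, 474 and 531 normalized counts in *Fmr1* KO replicates 1, 2 and 3, and 371, 354 and 478 in WT replicates 1, 2 and 3. The groups overlapped, with *Fmr1* KO replicate 1 beside the lower pair of WT mice and WT replicate 3 beside *Fmr1* KO replicate 2. The means were 454 ± 88.7 in *Fmr1* KO and 401 ± 67.4 in WT mice (SD, n = 3 each), and the log2 fold change was 0.17 (SE 0.15). Unlike that of *Sox10*, the SD of *Myrf* within the genotypes, 0.27 on the log2 scale, was 3.66 times the counting SD.

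*Sox4* had 69.8, 89.3 and 48.4 normalized counts in *Fmr1* KO replicates 1, 2 and 3, and 85.4, 58.8 and 84.8 in WT replicates 1, 2 and 3. The lowest and the highest value of all 6 mice were both in *Fmr1* KO mice, in replicates 3 and 2. The means were 69.1 ± 20.4 in *Fmr1* KO and 76.3 ± 15.2 in WT mice (SD, n = 3 each), and the log2 fold change was -0.18 (SE 0.23). *Fmr1* KO replicate 3, lowest in *Sox4*, was the highest mouse in *Myrf*. *Sox9*, the other SOX gene measured and an astrocyte factor in the adult brain, had 218 ± 8.65 normalized counts in *Fmr1* KO and 236 ± 19.0 in WT mice (SD, n = 3 each), and the log2 fold change was -0.12 (SE 0.11, adjusted p = 0.803 from edgeR).

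Of the genes of mature oligodendrocytes, *Gjb1* separated the genotypes. It had 88.9, 99.6 and 105 normalized counts in *Fmr1* KO replicates 1, 2 and 3, and 63.8, 58.8 and 80.2 in WT replicates 1, 2 and 3. The groups did not overlap, with all *Fmr1* KO values above all WT values, as for 6.82% of the 601 tested probes. The means were 97.7 ± 8.05 in *Fmr1* KO and 67.6 ± 11.2 in WT mice (SD, n = 3 each), and the log2 fold change was 0.52 (SE 0.17). Its raw counts were 116, 58 and 93 in *Fmr1* KO and 68, 59 and 87 in WT replicates 1, 2 and 3, and the lowest of them was in *Fmr1* KO replicate 2, whose lane gave the fewest counts overall. Without *Fmr1* KO replicate 2 the log2 fold change was 0.50. *Gja1*, the connexin gene of astrocytes and the other connexin measured, had a value of -0.20 on the same scale (SE 0.078, adjusted p = 0.506 from edgeR).

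*Gsn* had 349.6, 436 and 481 normalized counts in *Fmr1* KO replicates 1, 2 and 3, and 292, 278 and 443 in WT replicates 1, 2 and 3. WT replicate 3 was above a pair of *Fmr1* KO mice, and the other WT mice were below every *Fmr1* KO mouse. The means were 422 ± 66.7 in *Fmr1* KO and 338 ± 91.8 in WT mice (SD, n = 3 each), and the log2 fold change was 0.31 (SE 0.18). *Slc44a1* had 696, 817 and 949 normalized counts in *Fmr1* KO replicates 1, 2 and 3, and 636, 637 and 828 in WT replicates 1, 2 and 3. The arrangement of the mice was the same as for *Gsn*, with WT replicate 3 between *Fmr1* KO replicates 2 and 3. The means were 821 ± 127 in *Fmr1* KO and 700.2 ± 111 in WT mice (SD, n = 3 each), and the log2 fold change was 0.23 (SE 0.13). The SD within the genotypes was 3.99 times the counting SD for *Gsn* and 4.06 times for *Slc44a1*, against a median of 1.39 times over all tested probes.

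*Tmem144* had 116, 148 and 179 normalized counts in *Fmr1* KO replicates 1, 2 and 3, and 115, 106 and 187 in WT replicates 1, 2 and 3. The highest of the 6 mice was WT replicate 3. The means were 147 ± 31.6 in *Fmr1* KO and 136 ± 44.5 in WT mice (SD, n = 3 each), and the log2 fold change was 0.10 (SE 0.23). The direction of *Tmem144* rested on single mice, since the log2 fold change was -0.077 without *Fmr1* KO replicate 3, -0.050 without WT replicate 2 and -0.0068 without WT replicate 1, but 0.40 without WT replicate 3 and 0.27 without *Fmr1* KO replicate 1.

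*Enpp6*, the gene of newly formed oligodendrocytes, had the highest fold change of the 8 genes and also the widest spread. It had 68.2, 101 and 79.9 normalized counts in *Fmr1* KO replicates 1, 2 and 3, and 47.8, 33.9 and 78.4 in WT replicates 1, 2 and 3. WT replicate 3 lay between *Fmr1* KO replicates 1 and 3, and the other WT mice were below all *Fmr1* KO mice. The means were 83.1 ± 16.8 in *Fmr1* KO and 53.4 ± 22.7 in WT mice (SD, n = 3 each), and the log2 fold change was 0.59 (SE 0.28). Raw counts were 89, 59 and 71 in *Fmr1* KO and 51, 34 and 85 in WT replicates 1, 2 and 3. The scaled mean of the 78 probes with the lowest counts, an estimate of background, was 15.8 in *Fmr1* KO replicate 2 and lay between 6.61 and 7.82 in the remaining lanes. With that background subtracted the log2 fold change of *Enpp6* was 0.63.

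**Figure D2:**
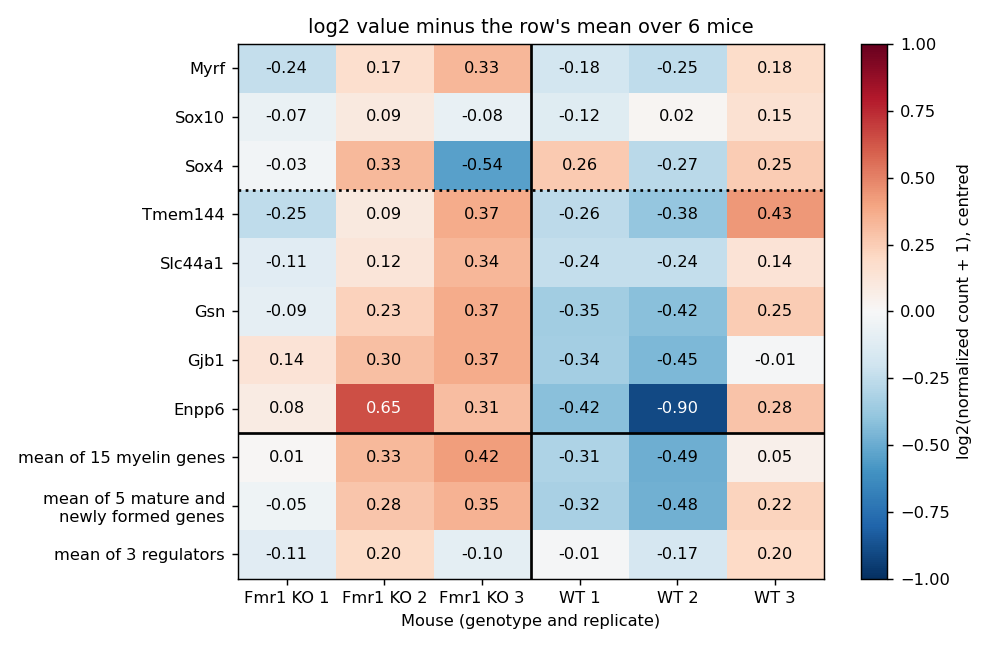
Each cell gives log2(normalized count + 1) of a gene (rows) in a mouse (columns) minus the gene's mean over the 6 mice, with red above and blue below that mean; the rows under the solid line are means over lists. The rows from *Tmem144* to *Enpp6*, and *Myrf*, share an order of mice in which WT replicate 3 stands above the other WT mice and *Fmr1* KO replicate 1 below the other *Fmr1* KO mice, while *Sox10* lies between -0.12 and 0.15.

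*Myrf* and the 5 mature and newly formed oligodendrocyte genes varied together between mice of the same genotype. WT replicate 3 was the highest WT mouse and *Fmr1* KO replicate 1 the lowest *Fmr1* KO mouse in all 6 of these genes, a pattern chosen after the values were seen. Of all 601 tested probes 33.3% had this order. Scaled totals were 260605, 284101 and 288535 in *Fmr1* KO and 261670, 260153 and 280029 in WT replicates 1, 2 and 3, so over all probes too, WT replicate 3 was the highest WT mouse and *Fmr1* KO replicate 1 the lowest *Fmr1* KO mouse. With lanes scaled to equal totals, 13.5% of all tested probes and again 6 of these 6 genes had the order. Of 15 tested genes of the myelin membrane and of galactolipid synthesis, 13 had it on the normalized counts and 11 with equal totals. WT replicate 3 was also the mouse with most prolactin RNA, at 1626 raw counts, against 4, 6 and 9 in *Fmr1* KO replicates 1, 2 and 3 and 123 and 6 in WT replicates 1 and 2. Prolactin is a pituitary hormone, and its part in the oligodendrocyte values of this mouse was not tested.

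Leaving out WT replicate 3 moved the mature genes most. The median log2 fold change of the 5 mature and newly formed genes was 0.56 without that mouse, against 0.19 to 0.44 without each other mouse. Without it, *Enpp6* had a log2 fold change of 0.98 (adjusted p = 0.0875 from edgeR), *Gjb1* of 0.66 (adjusted p = 0.116), *Gsn* of 0.56 (adjusted p = 0.0662) and *Slc44a1* of 0.36 (adjusted p = 0.216). These 4 genes were then under an unadjusted p of 0.05 in edgeR and higher in *Fmr1* KO mice, against 6.82% of all 601 probes in the same fit. None of the 8 passed after adjustment, and 11 of the 601 probes did. *Sox10* kept a value near 0, with 0.027. Without *Fmr1* KO replicate 1, 5 of the 8 genes were under an unadjusted p of 0.05, all higher in *Fmr1* KO mice, *Myrf* among them with a log2 fold change of 0.33, and none passed after adjustment. Of all 601 probes, 10.8% were under this limit and higher in *Fmr1* KO mice in that fit, so the share over all probes was also above that in the fit of all 6 mice. In *Myrf* and the 5 mature and newly formed genes, these were the highest WT mouse and the lowest *Fmr1* KO mouse. Leaving out either therefore raises their fold changes by construction. Without each of the other mice in turn, only *Gjb1* of the 8 genes was under an unadjusted p of 0.05. Of all 601 probes, 37 to 47 were under this limit in those fits, in either direction.

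**Figure D3:**
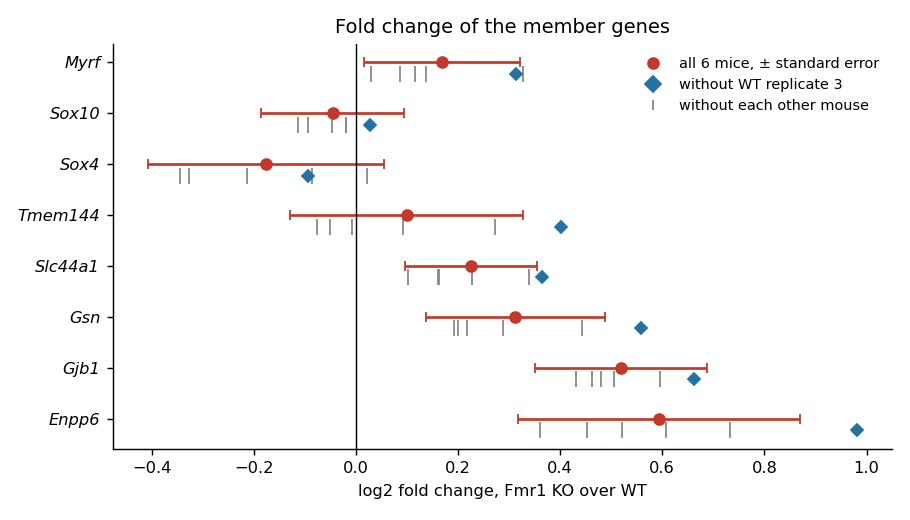
Log2 fold change of *Fmr1* KO over WT (x axis) for each gene, as the edgeR estimate with its standard error over all 6 mice (red), without WT replicate 3 (blue diamonds) and without each other mouse (grey ticks). *Gjb1*, *Enpp6*, *Gsn*, *Slc44a1* and *Myrf* stay above 0 in all of these fits, while *Sox10*, *Sox4* and *Tmem144* cross 0.

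Expressed as a ratio to *Sox10* in the same lane, a count no longer depends on the lane factor. The ratio of *Gjb1* to *Sox10* was 0.853, 0.853 and 1.01 in *Fmr1* KO replicates 1, 2 and 3, and 0.636, 0.532 and 0.659 in WT replicates 1, 2 and 3. The groups did not overlap, and the mean ratio was 1.49 times as high in *Fmr1* KO mice. The ratio of *Enpp6* to *Sox10* was 0.654, 0.868 and 0.772 in *Fmr1* KO replicates 1, 2 and 3, and 0.477, 0.306 and 0.644 in WT replicates 1, 2 and 3. The groups again did not overlap, although *Fmr1* KO replicate 1 and WT replicate 3 were nearly level, and the mean ratio was 1.61 times as high in *Fmr1* KO mice. Of 600 tested probes set against *Sox10* in this way, 9.17% had every *Fmr1* KO mouse above every WT mouse. *Myrf*, *Sox4*, *Tmem144*, *Slc44a1* and *Gsn* overlapped between genotypes in this ratio. For *Myrf* it was 3.43, 4.06 and 5.13 in *Fmr1* KO and 3.70, 3.20 and 3.93 in WT replicates 1, 2 and 3, and the mean was 1.16 times as high in *Fmr1* KO mice. The ratios carry no test, and the level of a ratio depends on the 2 probes, so it can be compared between mice only.

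**Figure D4:**
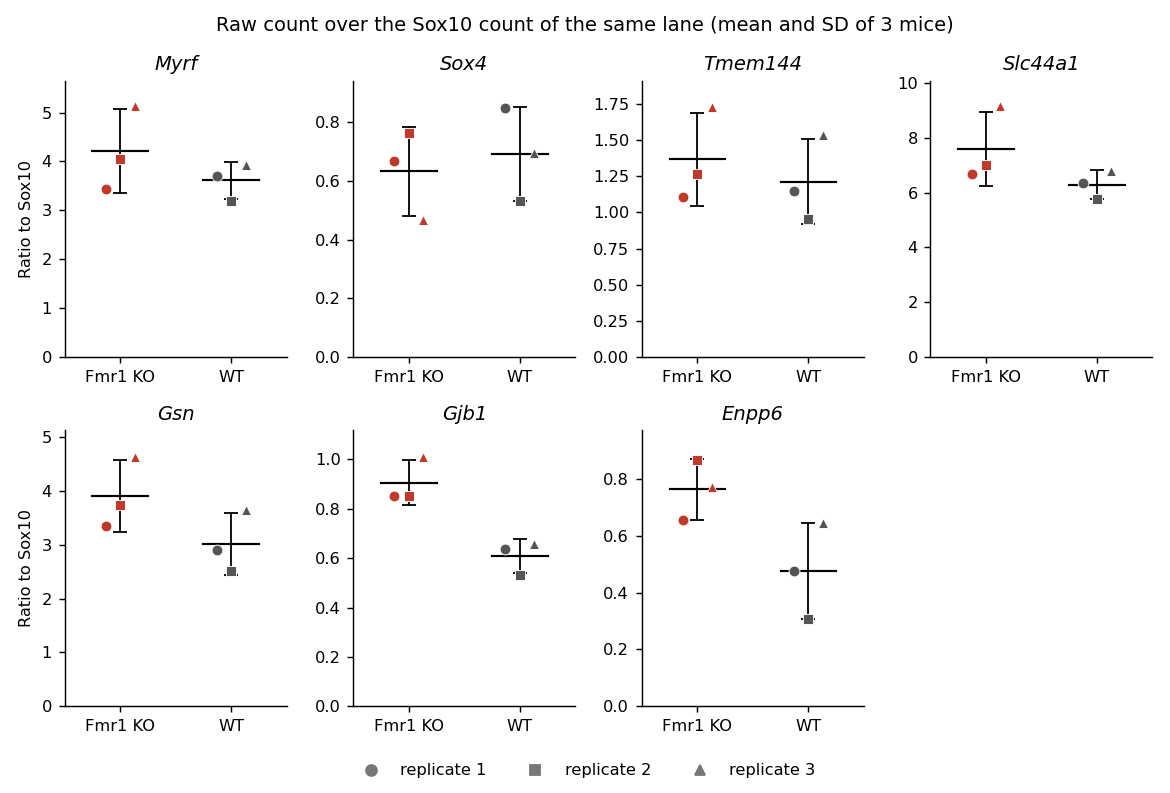
Raw count of 7 genes divided by the raw count of *Sox10* in the same lane (y axis, from 0), for 3 *Fmr1* KO (red) and 3 WT (grey) mice, with the mean and SD. *Gjb1* and *Enpp6* have every *Fmr1* KO mouse above every WT mouse, and the other panels overlap.

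The mean log2 value of the 3 transcription factor genes minus that of the 5 mature and newly formed genes was taken in each mouse as a further measure within a lane. It was -0.36, -0.38 and -0.74 in *Fmr1* KO replicates 1, 2 and 3, and 0.01, 0.02 and -0.32 in WT replicates 1, 2 and 3. All *Fmr1* KO mice were below all WT mice, with *Fmr1* KO replicate 1 and WT replicate 3 close to each other. The difference of the group means was -0.40, against a spread within the genotypes of 0.20 (SD, log2). This value is over genes chosen with their fold changes known and carries no test. The centred mean of the transcription factor genes was -0.11, 0.20 and -0.10 in *Fmr1* KO replicates 1, 2 and 3. That of the 5 mature and newly formed genes was -0.05, 0.28 and 0.35.

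The genes whose values ran closest to each member over the 6 mice were found by the root mean square difference of centred log2 values, among 600 other tested probes. Closest to *Gsn* were *Cnp* (0.066) and *Mal* (0.092), which encode an enzyme and a membrane protein of myelin, and *Bcas1* (0.094), a gene of myelinating oligodendrocytes. The median difference of all probes to *Gsn* was 0.30. Closest to *Gjb1* were *Ugt8a* (0.061) and *Gal3st1* (0.079), enzymes of galactolipid synthesis, and *Itga7* (0.094), an integrin gene. Closest to *Enpp6* were *Mog* (0.16) and *Tmem88b* (0.20), both of them genes of oligodendrocytes. *Tmem144* had *Egfr* (0.098), *Bcas1* (0.11) and *Gsn* (0.12) as its nearest genes. *Slc44a1* had *Ldlrad3* (0.049), *Crip1* (0.062) and *Myrf* (0.063), and *Myrf* had *Slc44a1* (0.063), *Pecam1* (0.069) and *Zfp367* (0.069). None of the 3 genes nearest to *Sox10*, *St3gal6* (0.026), *Dusp7* (0.032) and *Xrcc6* (0.044), was on an oligodendrocyte list, and the same held for *Relb* (0.11), *Bbc3* (0.15) and *Mgmt* (0.17), the 3 nearest to *Sox4*. Most tested probes were on no such list, and neither were *Itga7*, *Egfr*, *Ldlrad3*, *Crip1*, *Pecam1* and *Zfp367*. In this order of likeness *Myrf* was in place 12 for *Gsn*, 40 for *Gjb1*, 395 for *Sox10* and 485 for *Sox4*. A flat gene is close to any other flat gene by this measure, and all values share the lane factors.

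The oligodendrocyte genes outside the 8 give the setting. Their lists, too, were chosen with earlier results of these data known. Of 12 tested genes of the myelin membrane, 12 had a log2 fold change above 0, against 52.7% of all tested probes. Their median was 0.46. Of these, 1 passed the adjusted threshold of edgeR, against 0.832% of all tested probes in either direction. It was *Opalin*, higher in *Fmr1* KO mice and named after its values were seen. A further myelin gene, *Ninj2*, was too low to be tested. Among the most abundant were *Cnp*, with 0.38 (SE 0.14), *Plekhb1*, with 0.01 (SE 0.10), and *Mobp*, with 0.52 (SE 0.17), and none of these 3 passed. The 3 galactolipid enzymes had a median of 0.56, and none passed, while all 3 were under an unadjusted p of 0.05 and higher in *Fmr1* KO mice. Of the 12 myelin membrane genes, 9 were under this limit and higher in *Fmr1* KO mice. Over all 601 tested probes this share was 5.66%. Most genes of these lists had the order of mice given above, so they do not count as separate observations. Of 22 precursor and lineage genes looked for, 2 were measured. *Bcas1* had 922 ± 135 normalized counts in *Fmr1* KO and 802 ± 180.1 in WT mice (SD, n = 3 each). *Tgfa*, a growth factor gene, had means of 108 in *Fmr1* KO and 113 in WT mice. Neither passed in edgeR.

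Markers of other cells were compared in the same lanes. The summed normalized counts of 6 measured astrocyte markers were 7764 to 8510 in *Fmr1* KO and 8797 to 9436 in WT mice, and did not overlap. The share of all probes with every *Fmr1* KO mouse below every WT mouse was not taken, so this carries no weight as evidence. None of the 6 passed in edgeR. *Slc1a3* and *Gja1* were under an unadjusted p of 0.05, both lower in *Fmr1* KO mice, beside 51 of the 601 probes in either direction. These 2 genes made up most of each sum. Of the 6 markers, 2 had a log2 fold change above 0, *Agt* with 0.10 and *S100b* with 0.0041. Summed counts of 7 endothelial markers were 749 to 939 in *Fmr1* KO and 769 to 943 in WT mice. Those of 9 microglia markers were 974 to 1135 in *Fmr1* KO and 1030 to 1163 in WT mice, and those of 5 neuron markers were 8513 to 8806 in *Fmr1* KO and 8214 to 8814 in WT mice. The groups overlapped in these 3 sums, and none of these markers was under an unadjusted p of 0.05. For 4 markers of neighbouring tissue, prolactin among them, the sums were 158 to 354 in *Fmr1* KO and 221 to 1745 in WT mice, with WT replicate 3 the highest. Of the 3 tested, none passed, and *Tbr1*, a factor of cortical neurons, was under an unadjusted p of 0.05 with a log2 fold change of 0.84. *Slc17a7*, another of the 3, was highest in *Fmr1* KO replicate 1. It had 296, 151 and 90.1 normalized counts in *Fmr1* KO and 86.3, 185 and 204 in WT replicates 1, 2 and 3. No marker averaged 0, the lowest being *Fcrls*, a microglia gene, at a mean of 26.5 over all mice, apart from *Ttr*, a choroid plexus gene of the neighbouring tissue list, at 18.5. Their part in the oligodendrocyte values was not tested.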

How the data were processed

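Hypothalamic RNA of 3 *Fmr1* KO and 3 WT mice was analysed, with groups taken from the genotype labels. The deposited raw table holds counts of 787 probes per lane, which the authors obtained on the nCounter instrument with the Mouse Neuroinflammation Panel and custom probes and handled in nSolver. The authors' value table holds a signal, the same counts multiplied by 1 factor per lane (within 0.01 for all but 1 of 4722 values, a raw count of 1 listed as 1), which the methods describe as scaling on housekeeping genes. The factors were recovered as the ratio of both tables. Of the probes, 772 were named by accession and 15 by symbol.

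Probes with a raw count above 20 in at least 3 of 6 lanes were kept, which left 601. Raw counts were fitted with edgeR 4.0.16 (glmQLFit, glmQLFTest) in R 4.3.3 with lane sizes set by the factors, with Benjamini-Hochberg adjustment over the 601 probes. Standard errors are the log2 fold change over the square root of F. Log2 values of single mice carry a pseudocount of 1. The counting SD is the Poisson SD on the log2 scale. The fit was tested on simulated data. limma 3.58.1 and DESeq2 1.42.0 served as alternatives.

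The genes and lists were chosen with earlier results of these data known. The rule for naming took the 8 genes, the 3 nearest probes of each and the 4 most abundant of each list. One gene that this rule takes is not reported here. An exact permutation test of 3 against 3 mice cannot give a two-sided p below 0.1 and was not used. The lowest chi-square over degrees of freedom between lanes of 1 group was 3.11, so no lane was a copy of another. This value cannot tell a repeated measurement of the same RNA, since no known repeat was available for comparison. The mice are separate animals. Alternatives changed the scaling, the filter, the test, the background or the mice included.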

Additional observations from a re-analysis of the deposited data

How the results depend on the processing

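None of the 8 genes passed an adjusted p under 0.05 in edgeR or in any of the 17 alternatives. *Gjb1*, *Enpp6*, *Gsn*, *Slc44a1* and *Myrf* kept a log2 fold change above 0 in all 17. Leaving out each mouse in turn gave -0.11 to 0.027 for *Sox10*, -0.34 to 0.022 for *Sox4* and -0.077 to 0.40 for *Tmem144*, and each of these 3 crossed 0. The sign of *Sox10* turned without WT replicate 3, that of *Sox4* without *Fmr1* KO replicate 3, and that of *Tmem144* without *Fmr1* KO replicate 3 (-0.077), WT replicate 1 (-0.0068) or WT replicate 2 (-0.050). The median of the transcription factor genes also turned, to 0.027 and 0.022, without WT replicate 3 and without *Fmr1* KO replicate 3. Each of these medians is the value of a single gene, *Sox10* in the first fit and *Sox4* in the second. Why these mice differed was not tested. Over all probes, 3 passed when only probes averaging 50 raw counts or more were tested, which leaves 487. With the methods' t-test none passed, and 45 were under an unadjusted p of 0.05, against 51 in edgeR. Leaving out a mouse gave 2 to 11 passing probes. With the replicate number as a block 3 probes passed, none of them among the 8 genes. Of the 8, *Slc44a1*, *Gsn* and *Gjb1* were then under an unadjusted p of 0.05, against *Gjb1* alone in edgeR without the block. Over all 601 probes, 49 were under this limit with the block, in either direction, against 51 without it. Deviations of mice with the same number correlated at -0.059, -0.077 and 0.10, and those of mice with different numbers at -0.17 to 0.23. Whether the numbers pair the mice cannot be decided from these values, since a correlation over many probes can miss pairing in a few genes. The order of mice shared by *Myrf* and the 5 mature and newly formed genes, checked with other scalings after seeing the data, held in 6 genes with equal lane totals and in 5 as a ratio to *Sox10*, where *Gjb1* was tied. Raw counts of *Sox4*, *Gjb1* and *Enpp6* were 34 to 116, and counting alone would give them an SD of 0.17 to 0.19 on the log2 scale.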
